A study of Mus musculus with 6 samples.

Results

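Platelets are made by megakaryocytes, and the proteins with which they stick, aggregate and secrete are encoded by a small set of genes that this lineage expresses strongly. The signals of 10 such genes were followed in LSK cells, which carry Sca-1 and c-Kit but no lineage markers. This bone marrow (BM) population contains haematopoietic stem cells (HSCs) and early progenitors. The genes were *Itga2b*, *Itgb3*, *Gp5*, *Gp9*, *Gp1bb*, *Pf4*, *Ppbp*, *Thbs1*, *Vwf* and *Selp*, out of 37074 gene names on the array. They were picked by name for their known role, by a rule that uses no measured value, but with earlier results of these data known. Every probe named for 1 of these genes was taken, which gave 17 probes. Of these, 15 rose clearly over background on 3 or more of the 6 arrays and were tested, and all 10 genes kept at least 1 tested probe. A gene with several probes is represented here by the brightest.

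RNA of LSK cells was hybridised from 3 control samples (wild type *Atg5*, Atg5w/w;VaviCre+) and 3 samples labelled as *Atg5* knockout (Atg5f/f;VaviCre+, here Atg5f/f;Vav). The mice were C57BL/6 at postnatal day (P) 6 to 8. Both groups carried the *Vav*-iCre transgene, in which a haematopoietic promoter drives Cre from fetal life. The comparison asks how loss of *Atg5*, which autophagy requires, alters gene expression in neonatal stem and progenitor cells. Whether each sample was a single mouse or a pool is not given, so n and SD count arrays, and the spread between them may be partly technical.

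Values are log2 signals on a 1-colour array, measured relative to the 75th percentile of the same array. A value of 0 therefore lies at that percentile, and each unit is a doubling. Such values compare arrays for 1 probe and do not rank genes, since probes differ in brightness. The 6 arrays lay on 1 slide, the control arrays in its first row and the others in the next, so genotype and slide row cannot be told apart. Of all probes, 57.6 to 58.2% were well above background on the control arrays and 51.6 to 54.8% on the arrays labelled Atg5f/f;Vav. The single *Atg5* probe read 1.10, 0.93 and 1.06 in controls and 1.46, 1.51 and 1.74 in the arrays labelled Atg5f/f;Vav, a difference of 0.54 (adjusted p = 0.0209). Whether that probe lies in the deleted part was not determined, so it does not check the labels, and the direction of each difference below rests on them. All 7 markers of the LSK gate and its progenitors, *Kit*, *Ly6a* and *Cd34* among them, were well above background on all 6 arrays. Their levels were not all alike between the groups. *Ly6a*, which encodes Sca-1, was called higher (1.57, adjusted p = 0.00623) and *Ptprc* lower (-0.34, adjusted p = 0.05 after rounding). The other 5 did not pass by their brightest probes. By these probes, *Flt3* (-0.87, adjusted p = 0.0675) and *Kit* (-0.38, adjusted p = 0.0563) were lower without overlap, and the groups overlapped for the rest. The dimmer *Flt3* probe was called lower (-0.85, adjusted p = 0.0138). The dimmer *Cd34* probe was lower without overlap and did not pass (-0.73, adjusted p = 0.0583). The part of these shifts in the values below was not tested. Antibodies to megakaryocyte antigens are not named among those used to remove lineage-positive cells from mice of this age.

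As background, the surface of a platelet carries the integrin αIIbβ3, the fibrinogen receptor, and the GPIb-IX-V complex, the receptor for von Willebrand factor. Its alpha granules store chemokines, adhesive proteins and P-selectin, which are released or exposed on activation. Several of these transcripts are known in the stem cell compartment too, where *Vwf* and *Itga2b* are found in HSCs with a bias towards platelet output.

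The 10 genes did not move as a block. Compared with controls, *Itga2b* and *Gp5* were higher in the samples labelled Atg5f/f;Vav, *Ppbp*, *Thbs1*, *Vwf* and *Gp9* were lower, and *Pf4*, *Itgb3*, *Gp1bb* and *Selp* did not pass the test. Limma called 34.4% of the 32074 tested probes either way, 17.3% higher and 17.1% lower. *Ppbp* and *Thbs1* entered the test only through the control arrays, where they were well above background, so they are left out of the counts that follow. Of the 8 genes well above background on all 6 arrays, 2 were called higher, 2 lower and 4 did not pass, and 38.1% of the 28118 probes of that kind were called. Control and Atg5f/f;Vav values were fully separated for 6 of these 8 genes, 4 higher and 2 lower, against 55.9% of those probes and 55.4% of all tested probes. The median log2 difference over the 8 genes was 0.37 and over those probes -0.01. Over all 10 genes it was 0.22, and over all tested probes -0.06. In this bulk measurement, fewer cells of a kind and less RNA per cell cannot be told apart.

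**Figure D1:**
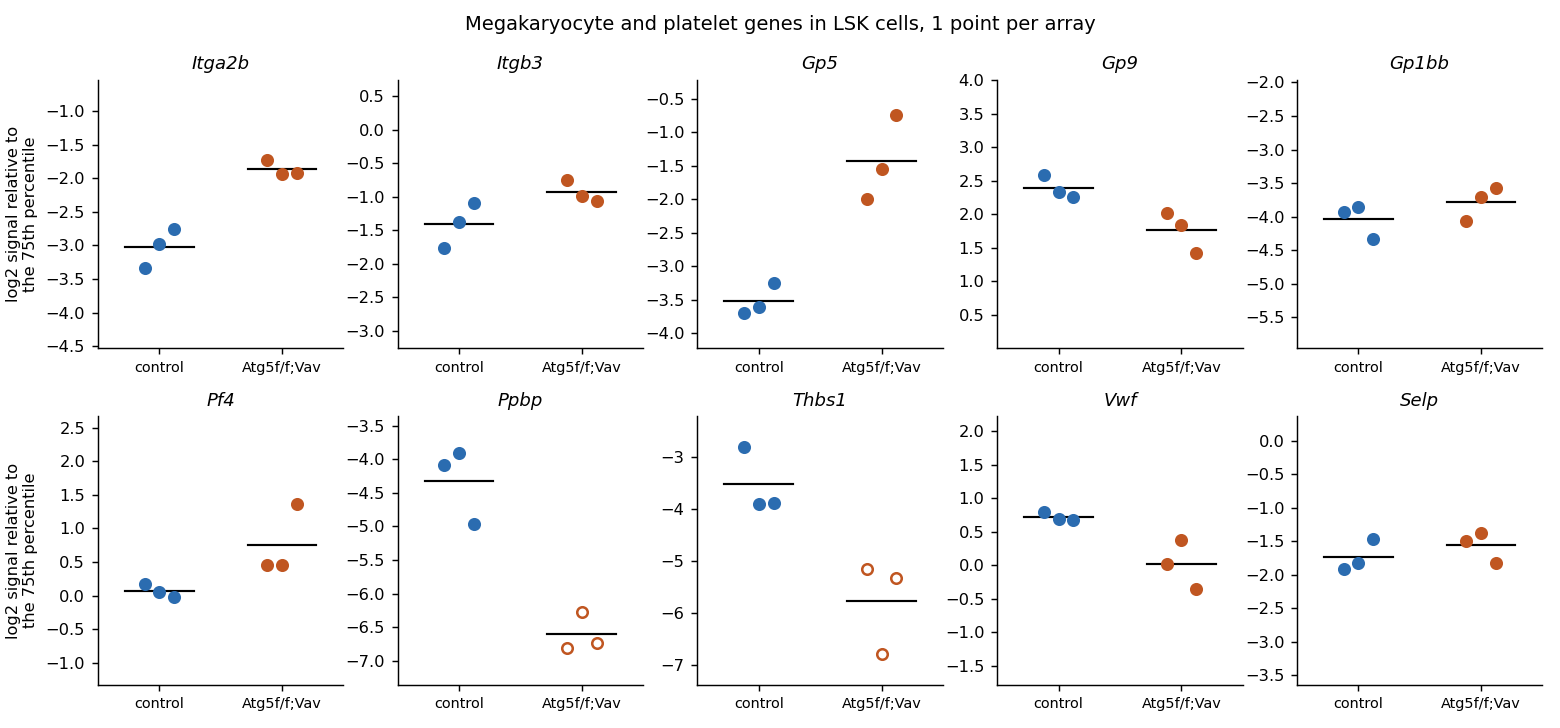
Log2 signal relative to the array's 75th percentile for the 10 genes, 1 panel per gene and 1 point per array, with 3 control arrays in blue, 3 arrays labelled Atg5f/f;Vav in orange and the group mean as a line. Open points mark groups in which the probe was not well above background on any array, and each panel has its own range. *Gp5* and *Itga2b* are higher in every array labelled Atg5f/f;Vav, while *Ppbp* and *Thbs1* are not well above background in any of these 3.

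The integrin subunits were both numerically higher. *Itga2b* encodes the αIIb chain (CD41), an early surface marker of the megakaryocyte lineage. Its probe spans 209 bases of chromosome 11 in mm9 (chr11:102319453-102319661, minus strand), more than its own 60 bases, so that it crosses a splice junction and reads spliced RNA. The probe is shown because the rise of *Itga2b* rests on it alone:

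*Itga2b* probe: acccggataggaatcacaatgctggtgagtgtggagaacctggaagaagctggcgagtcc

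Signals of *Itga2b* were -3.34, -2.98 and -2.76 in controls and -1.72, -1.93 and -1.92 in the arrays labelled Atg5f/f;Vav. The lowest array of the second group lay above the highest control. The difference was 1.17 ± 0.17 (SE, n = 3 arrays per group), or 2.25-fold, with a limma adjusted p of 0.0136. *Itgb3* encodes the β3 chain, which also pairs with the αV integrin in other cells. It read -1.76, -1.37 and -1.09 in controls and -0.75, -0.99 and -1.06 in the other group (chr11:104531672-104531731). The groups only just failed to overlap, and the difference of 0.47 (95% confidence interval 0.03 to 0.92, not adjusted for multiple tests) did not pass after adjustment (adjusted p = 0.0902). A second *Itgb3* probe was not well above background on any array.

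The subunits of the GPIb-IX-V complex differed in direction. *Gp5*, which encodes the GPV chain cut by thrombin, showed the largest rise among the 10 genes. It read -3.69, -3.61 and -3.25 in controls and -2.0, -1.55 and -0.75 in the arrays labelled Atg5f/f;Vav (chr16:30308347-30308406, minus strand). All 3 control arrays lay more than 1 unit below the lowest of the others. The difference was 2.08 ± 0.31 (SE), or 4.24-fold (adjusted p = 0.0142). *Gp9*, which encodes the GPIX chain needed for the complex to reach the surface, went the other way. Its values were 2.58, 2.33 and 2.25 in controls and 2.02, 1.84 and 1.43 in the other group (chr6:87729650-87729709). No array of either group fell within the range of the other, and the difference was -0.63 ± 0.18 (SE; adjusted p = 0.0375). *Gp1bb* encodes the β chain of GPIb. It gave -3.93, -3.86 and -4.34 in controls against -4.06, -3.71 and -3.58 (chr16:18621107-18621166, minus strand), with overlapping groups. Its difference was 0.26 (95% confidence interval -0.18 to 0.69, adjusted p = 0.296), and with quantile normalisation it was 0.59 (adjusted p = 0.0412). *Gp1bb* overlaps *Septin5* in the annotation, so that its signal is uncertain, and its second probe was not well above background on any array. *Gp1ba*, the von Willebrand factor-binding chain and not among the 10, rose from -2.41, -2.62 and -2.52 to -1.85, -0.89 and -0.65, a difference of 1.39 ± 0.30 (SE; adjusted p = 0.0189).

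The stretches before the start of *Gp5* and *Itga2b* are shown because these genes rose. They hold the 250 bases upstream of the RefSeq start on GRCm38.p6, with letters matching a searched motif in capitals. The motifs, searched on both strands, were named for factor families known to act in megakaryocytes. The GATA motif was read as AGATAA with its variants AGATAG, which differs at the end, TGATAA, which differs at the beginning, and finally TGATAG, the ETS motif as AGGAAG besides its variant CGGAAG, and the RUNX motif as TGTGGT. Neighbouring matches may share bases, although none do in the sequences shown.

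*Gp5*, chr16:30310782-30311031, minus strand: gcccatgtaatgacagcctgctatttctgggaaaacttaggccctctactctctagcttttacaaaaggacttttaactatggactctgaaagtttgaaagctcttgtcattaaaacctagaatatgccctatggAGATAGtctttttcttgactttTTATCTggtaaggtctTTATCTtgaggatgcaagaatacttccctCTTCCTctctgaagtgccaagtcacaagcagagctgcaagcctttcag

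*Itga2b*, chr11:102469884-102470133, minus strand: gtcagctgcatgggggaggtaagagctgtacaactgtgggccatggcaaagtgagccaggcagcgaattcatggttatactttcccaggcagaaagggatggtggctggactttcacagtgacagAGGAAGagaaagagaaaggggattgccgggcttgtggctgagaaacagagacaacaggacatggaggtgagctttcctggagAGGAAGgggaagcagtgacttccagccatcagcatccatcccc

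The *Gp5* window held 3 GATA matches, beginning 115, 93 and 77 bases before the start, and 1 ETS match at 48. Among 27025 promoters of the same length, 27.1% held a GATA match and 1.38% held at least 3. That cut equals the count in *Gp5*, a window shown because the gene rose, so the share is no test of *Gp5*. *Itga2b* had 2 ETS matches, at 125 and 43 bases, and no GATA match with these letters. An ETS match was found in 39% of all promoters and a RUNX match in 14.2%. Of the 10 genes, 7 had a promoter in the table, and *Gp5* and *Gp1bb* were those with a GATA match. The *Gp1bb* window had 1 GATA match and 1 ETS match, *Gp9* had 1 ETS and 1 RUNX match, and *Selp* had 1 ETS match. Such matches describe the letters only and show no binding.

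Among the alpha-granule proteins, the chemokine *Ppbp* was lower, while *Pf4* had values above the controls without passing the test. Both genes lie next to each other on chromosome 5, and their products, platelet factor 4 and pro-platelet basic protein, are among the most abundant in platelets. *Pf4* read 0.17, 0.05 and -0.02 in controls and 0.45, 0.45 and 1.36 in the arrays labelled Atg5f/f;Vav (chr5:91202275-91202334). Every value of the second group was above every control, and replicate 3 stood apart from the other two. The difference was 0.69 ± 0.25 (SE), or 1.61-fold, and did not pass (adjusted p = 0.0731). Without replicate 3 of the Atg5f/f;Vav group it was smaller, at 0.38, yet passed (adjusted p = 0.0453), and it also passed with normexp background correction (0.63, adjusted p = 0.0402) and with an intensity trend (adjusted p = 0.0452). *Ppbp* read -4.09, -3.91 and -4.96 in controls and -6.81, -6.27 and -6.73 in the other group (chr5:91198970-91199029). It was well above background on all 3 control arrays and on 0 of the 3 arrays labelled Atg5f/f;Vav, where its level has only an upper bound. Measured against the lowest signal that counted as well above background on those arrays, *Ppbp* was at least 1.22-fold lower by group means. Control 3 (-4.96) lay below that signal on each of those arrays (-4.82, -4.57 and -4.42), so the bound does not hold array by array. The adjusted p of 0.0113 belongs to the fitted difference of -2.28, which includes values not well above background.

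The upstream windows of the chemokine pair are shown because these adjacent genes encode cargo of the same granule and *Ppbp* alone passed the test:

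*Pf4*, chr5:90772185-90772434, plus strand: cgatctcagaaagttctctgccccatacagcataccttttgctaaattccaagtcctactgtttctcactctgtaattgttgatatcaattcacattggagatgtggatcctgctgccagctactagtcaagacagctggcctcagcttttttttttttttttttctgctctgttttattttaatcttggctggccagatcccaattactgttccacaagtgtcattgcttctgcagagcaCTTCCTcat

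*Ppbp*, chr5:90768268-90768517, plus strand: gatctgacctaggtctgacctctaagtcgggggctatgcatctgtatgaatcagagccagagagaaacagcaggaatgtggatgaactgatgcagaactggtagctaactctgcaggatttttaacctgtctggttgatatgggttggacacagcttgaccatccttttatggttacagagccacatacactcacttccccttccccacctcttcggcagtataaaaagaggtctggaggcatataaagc

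*Pf4* had 1 ETS match, 9 bases before the start, and *Ppbp* had no match to any of these motifs.

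Of the adhesive proteins of the granule, *Thbs1* and *Vwf* were lower by their brightest probes and *Selp* stayed within the spread. *Thbs1* encodes thrombospondin-1, which platelets store and which stromal and endothelial cells also make. It read -2.82, -3.90 and -3.89 in controls and -5.16, -6.78 and -5.33 in the arrays labelled Atg5f/f;Vav (chr2:117952585-117952644). No array of the second group was well above background, and *Thbs1* was at least 2.1-fold lower there by group means. The fitted difference of -2.22, which includes those low values, had an adjusted p of 0.0196 (0.0506 with quantile normalisation). A second probe (chr2:117950962-117951021) also entered the test only through the control arrays, with -3.27, -4.68 and -4.86 against -6.36, -5.86 and -5.54. Its bound by group means was at least 1.26-fold lower. Controls 2 and 3 lay within or below the lowest signals well above background on the other arrays (-4.82, -4.57 and -4.42). The adjusted p of 0.0294 belongs to the fitted difference of -1.65.

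*Vwf* encodes von Willebrand factor, which bridges platelets to collagen and marks platelet-biased HSCs. Its brightest probe, at chr6:125636551-125636610, read 0.79, 0.69 and 0.68 in controls and 0.02, 0.38 and -0.35 in the arrays labelled Atg5f/f;Vav. The controls lay within 0.11 of each other and above all 3 others, and the difference was -0.70 ± 0.19 (SE; adjusted p = 0.0305). A second probe, for another transcript of the gene (chr6:125586583-125586642), fell by 0.91 ± 0.12 (SE), from -1.87, -1.88 and -2.0 to -2.97, -2.65 and -2.87 (adjusted p = 0.0123). The dimmest probe, for a further transcript (chr6:125542106-125542165), had the opposite sign, with -4.04, -3.98 and -4.23 against -4.02, -3.42 and -3.21, and overlapping groups (0.53, adjusted p = 0.0937). Averaged over all 3 probes, the *Vwf* difference was -0.36 and did not pass (adjusted p = 0.0772).

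*Selp* encodes P-selectin, which moves from the granule membrane to the surface on activation. It read -1.91, -1.83 and -1.47 in controls and -1.50, -1.37 and -1.82 in the other group (chr1:166079660-166079719), so that the groups overlapped throughout. Its difference was 0.18 (95% confidence interval -0.24 to 0.59, adjusted p = 0.449), and the other 2 *Selp* probes gave 0.16 and 0.18 (adjusted p = 0.618 and 0.758).

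**Figure D2:**
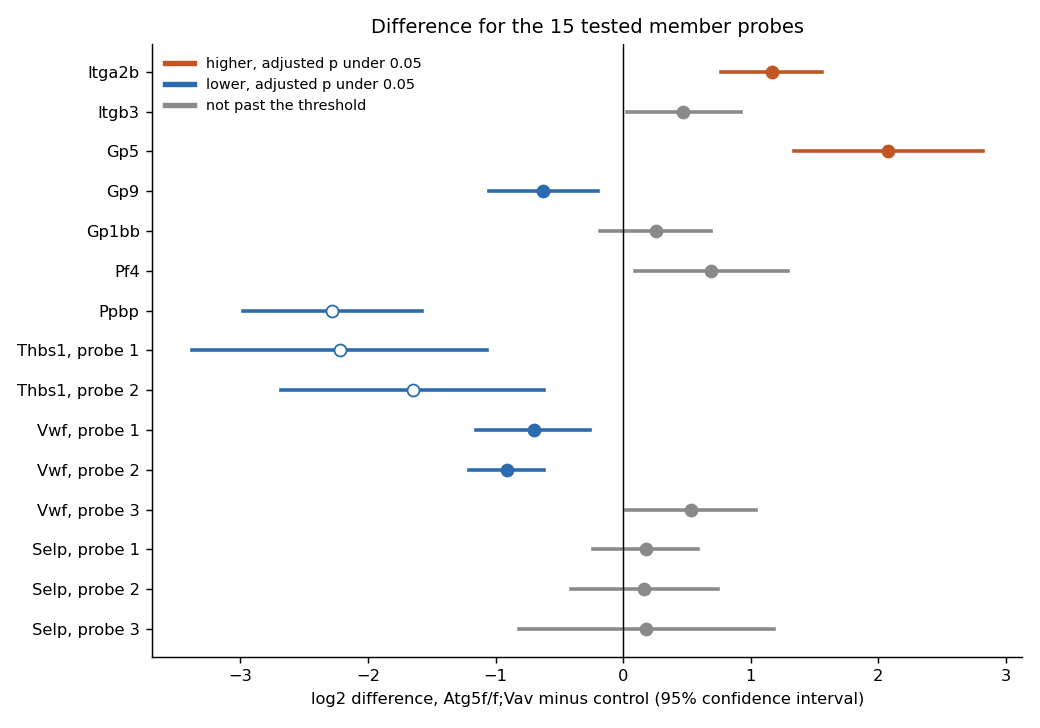
Log2 difference (samples labelled Atg5f/f;Vav minus control) with its 95% confidence interval for the 15 tested probes of the 10 genes, n = 3 arrays per group. Orange and blue mark probes called higher and lower by limma, grey those that did not pass, and open points those not well above background on any array labelled Atg5f/f;Vav, whose position depends on background. The intervals of *Gp5* (1.34 to 2.82) and *Itga2b* (0.77 to 1.56) lie above 0, while the 3 *Vwf* probes lie on both sides.

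These calls depended on single control arrays. Without control 1, and likewise without control 2, limma called 0 of the 10 genes (adjusted p 0.0513 to 0.126 for the 6), although 7 and 6 of them kept an unadjusted p under 0.05. The number of probes called over the whole array then fell from 11024 to 330 and 251. The differences themselves moved little, to 1.01 and 1.19 for *Itga2b* and to 1.99 and 2.04 for *Gp5*. *Vwf* and *Gp9* were also lost without control 3 (adjusted p = 0.0652 and 0.0590). *Vwf* was lost without Atg5f/f;Vav 1 (0.0557), and *Gp9* without Atg5f/f;Vav 2 or 3 (0.0677 and 0.0529).

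The other genes of the lineage were grouped by role in 6 lists with 91 genes, of which 83 were tested. Of these, 12 rose, 11 fell and 60 did not pass, that is 27.7% called against 34.4% of all tested probes, and the median difference was 0.01. The 11 falls include *Itga2*, which entered the test only through the control arrays.

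Transcription factors come first in the lineage, where GATA-1 with its cofactor FOG-1 (*Zfpm1*) drives megakaryocyte and erythroid genes alike. Of 16 factors tested, 3 rose, 1 fell and 12 did not pass, with a median of 0.02. *Gata1* rose from 0.87, 0.38 and 0.95 to 2.90, 3.73 and 4.56, a difference of 3.0 (adjusted p = 0.0121). Its lowest array labelled Atg5f/f;Vav lay almost 2 units above the highest control. *Gfi1b*, a repressor needed for platelet and red cell formation, rose from 1.61, 1.09 and 1.66 to 2.89, 3.76 and 4.4, a difference of 2.23 (adjusted p = 0.0152). *Zfpm1* read 3.83, 3.50 and 3.83 against 4.18, 4.61 and 5.15, and rose by 0.93 (adjusted p = 0.0307); its dimmer probe gave 0.54 (adjusted p = 0.0643). *Meis1*, a homeobox gene of HSCs and megakaryocytes, read 4.38, 4.44 and 4.48 against 4.04, 3.86 and 3.07, and fell by 0.78 (adjusted p = 0.0484). Its dimmer probes gave -0.92 (adjusted p = 0.0709), -1.15 (adjusted p = 0.0208) and -1.04 (adjusted p = 0.0246). *Fli1*, an ETS factor behind many platelet genes, gave -0.38 (adjusted p = 0.128), and it passed with the percentile over probes well above background on all arrays (-0.58, adjusted p = 0.0458). *Runx1*, active from the stem cell on, gave -0.23 (adjusted p = 0.272), and *Nfe2*, needed for platelet release, gave -0.09 (adjusted p = 0.646).

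**Figure D3:**
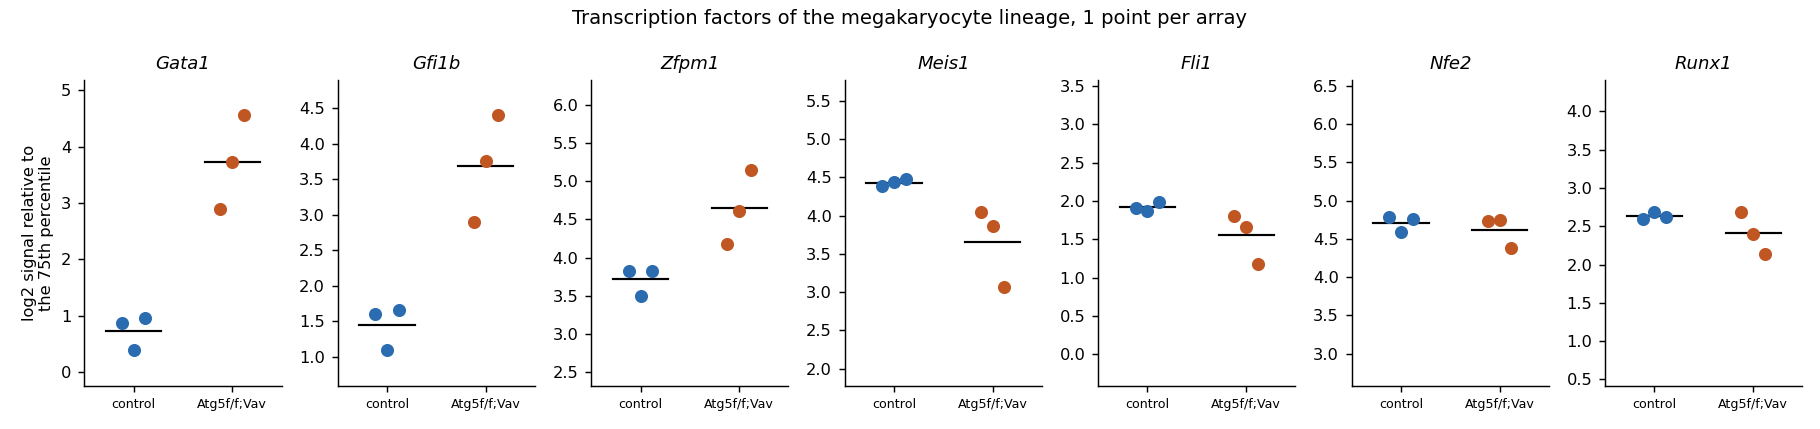
Log2 signal relative to the array's 75th percentile for 7 transcription factors of the megakaryocyte lineage, 1 point per array, with controls in blue, arrays labelled Atg5f/f;Vav in orange and the group mean as a line. Each panel has its own range. *Gata1* (difference 3.0), *Gfi1b* (2.23) and *Zfpm1* (0.93) are higher without overlap, and *Fli1*, *Nfe2* and *Runx1* did not pass the test.

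Cytokine receptor signalling, which platelet production needs, was covered by 8 genes of the JAK-STAT route and its inhibitors, with a median difference of 0.16. Among them *Socs3*, a feedback inhibitor of cytokine signals, was the only gene called higher (0.80, adjusted p = 0.0281). *Cbl*, a ubiquitin ligase that acts on activated receptors, was the only gene called lower (-0.35, adjusted p = 0.0377).

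Surface receptors beside the 10 genes numbered 21, *Gp1ba* included, of which 16 were tested, and 5 rose and 2 fell (median 0.12). The ADP receptor *P2ry1* rose from -1.75, -1.65 and -1.29 to -0.58, -0.22 and 0.56, a difference of 1.48 (adjusted p = 0.0171). The thrombin receptor *F2r* rose from 1.92, 1.80 and 2.04 to 2.67, 3.11 and 3.35 (1.12, adjusted p = 0.0150). *Itga2*, the collagen-binding integrin chain, was well above background on all 3 control arrays and on 0 of the others, so that it entered the test only through the control arrays. It was at least 1.26-fold lower by group means. The adjusted p of 0.0153 belongs to the fitted difference of -1.34, which includes values not well above background. *Pear1*, an aggregation receptor, fell by 1.06 (adjusted p = 0.0351), from 2.02, 2.02 and 1.91 to 1.38, 1.19 and 0.20. The remaining *Pear1* probes gave -0.73 (adjusted p = 0.0155) and -0.27 (adjusted p = 0.206). *Gp6*, the collagen receptor of platelets, was well above background on 1 array of each group and was not tested.

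Granule cargo and granule formation gave 1 rise and 3 falls among 16 tested genes, with a median of -0.42. *Tgfb1*, stored in large amounts in platelets and made by many cells, rose by 0.80 (adjusted p = 0.0166). *Mmrn1*, the factor V-binding multimerin, fell by 1.26 (adjusted p = 0.0477), from 1.49, 1.76 and 1.16 to 0.73, 0.64 and -0.74. *Pdgfb*, a growth factor chain, fell by 1.17 (adjusted p = 0.0159), and *Timp3*, a protease inhibitor, by 1.13 (adjusted p = 0.0209).

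In the list for integrin activation and the cytoskeleton, 2 genes rose and 1 fell among 16 tested (median 0.06). *Fermt3*, kindlin-3, which switches integrins on in blood cells, rose by 0.69 (adjusted p = 0.0207), and *Pdlim1*, an actin-associated adaptor, rose by 0.71 (adjusted p = 0.0229). *Actn1*, α-actinin-1, fell by 0.83 (adjusted p = 0.0386), whereas its dimmer probe gave -0.32 (adjusted p = 0.128). The platelet tubulin *Tubb1* was not well above background on any array. Among 11 enzymes and signalling genes, limma called 0 higher (0 also at an unadjusted p under 0.05) and 3 lower (median -0.48). They were the thromboxane enzymes *Tbxas1* (-1.14, adjusted p = 0.0228) and *Ptgs1* (-0.64, adjusted p = 0.0404) and the dense-granule GTPase *Rab27b* (-0.48, adjusted p = 0.0311). Their dimmer tested probes gave -1.91 for *Tbxas1* (adjusted p = 0.0445), -1.14 for *Ptgs1* (adjusted p = 0.0196) and -0.62 for *Rab27b* (adjusted p = 0.0576).

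Calls in these lists depended on single arrays as well. Without control 1 or control 2, limma called 0 of the 83 genes, although 12 higher and 11 lower kept an unadjusted p under 0.05 in each case. Leaving out control 3 ended the calls of *Zfpm1* (adjusted p = 0.0609), *Meis1* (0.110), *Mmrn1* (0.0723), *Cbl* (0.0609), *Pear1* (0.0742), *Actn1* (0.0963), *Ptgs1* (0.0764), *Tbxas1* (0.0546) and *Rab27b* (0.0785). Without Atg5f/f;Vav 2, *Zfpm1* (0.0631), *Meis1* (0.0656), *Mmrn1* (0.0539), *Cbl* (0.107), *Actn1* (0.0672), *Ptgs1* (0.0554) and *Socs3* (0.0675) were lost, and without Atg5f/f;Vav 3 *Cbl* (0.0537) and *Socs3* (0.0562). Quantile normalisation ended the calls of *Rab27b* (-0.28, adjusted p = 0.134), *Zfpm1* (0.60, adjusted p = 0.0818), *Pdlim1* (0.43, adjusted p = 0.0567) and *Mmrn1* (adjusted p = 0.0528).

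**Figure D4:**
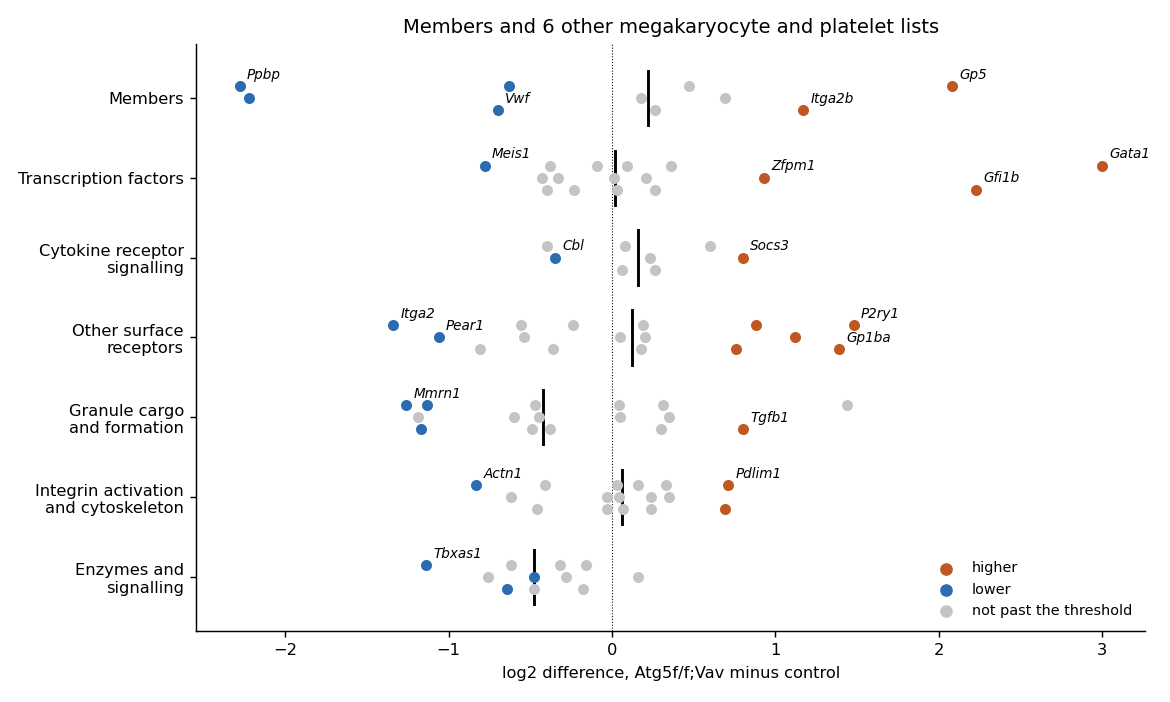
Log2 difference (samples labelled Atg5f/f;Vav minus control) of each tested gene in the list of 10 genes (Members) and in 6 other megakaryocyte and platelet lists, 1 point per gene, with the list's median as a black line. Orange and blue mark genes called higher and lower by limma, and grey those that did not pass. Medians run from -0.48 for enzymes and signalling to 0.22 for the 10 genes, and each list holds genes on both sides of 0.

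Markers of other cell types moved with the groups, and their part in the values above was not tested. Summed on a linear scale, as multiples of the 75th percentile, the 13 erythroid markers gave 525, 498 and 237 in controls and 93.3, 126 and 147 in the arrays labelled Atg5f/f;Vav. *Hba-a1* made up 89.1 to 92.2% of this sum in controls and 52.8 to 68.7% in the others, and without it the list gave 46.4, 38.7 and 25.9 against 29.2, 41 and 69.1. Within that list, 4 rose and 3 fell. The early genes *Klf1* and *Car1* rose by 2.95 and 3.80 (adjusted p = 0.0159 and 0.0138), while *Hba-a1* and *Slc4a1*, of the haemoglobin and membrane of red cells, fell by 2.26 and 2.29 (adjusted p = 0.0136 and 0.0149). The 10 endothelial markers summed to 11.7, 13.1 and 11.2 against 7.18, 6.69 and 2.96. *Robo4*, which HSCs also express, made up 83.8 to 85.7% of it in controls, and without *Robo4* the list gave 1.89, 1.87 and 1.65 against 1.37, 1.31 and 1.17. Of 8 tested, *Plvap* rose (0.58, adjusted p = 0.0294), while *Robo4* (-1.41, adjusted p = 0.0442), *Kdr* (-1.42, adjusted p = 0.0138) and *Cldn5* (-2.65, adjusted p = 0.0272) fell. *Cldn5* was well above background on 1 array labelled Atg5f/f;Vav and *Kdr* on 2, and both were on all 3 control arrays. The defining genes *Cdh5* and *Sele* were not well above background on any array. The 11 stromal markers summed to 22.3, 42.4 and 34.4 in controls and to 19.5, 21.5 and 23.6 in the others, and of 8 tested, 3 fell. The stromal collagen *Col1a1* read -4.14, 3.23 and 2.95 in controls and was not well above background on any of the others. It is among the 3 that fell, and it entered the test only through the control arrays. *Thbs1* was highest in control 1, where the tested stromal markers went both ways among the controls. *Cxcl12* (-0.59 against -2.19 and -3.12), *Postn* (-2.20 against -2.30 and -2.70) and *Acta2* (3.74 against 3.52 and 3.62) were highest there. *Col1a1*, *Col1a2* (-0.90 against 3.47 and 2.90), *Dcn* (-5.28 against -2.07 and -2.23) and *Pdgfrb* (-0.79 against 0.10 and 0.02) were lowest there, and *Lepr* lay between. This comparison was made after the values were seen. The 10 macrophage markers summed to 5.3 to 7.86 in controls and 6.99 to 7.21 in the others. *Csf1r* made up 54 to 66.3% of this sum in controls and 68.5 to 71.5% in the others. Without it the list gave 2.18, 3.61 and 2.31 against 2.28, 2.14 and 2.01. Of 7 tested, 0 rose, while *Vcam1* (-1.42, adjusted p = 0.00864) and *Cd5l* (-1.95, adjusted p = 0.0149) fell. The 6 lineage markers summed to 3.77 to 4.8 against 4.36 to 4.8, with 5 of 6 well above background on all arrays. Of these 5 tested, 0 fell, while *Ly6g* was called higher without overlap (0.71, adjusted p = 0.0149). Marker calls depended on single arrays too. Those of *Klf1*, *Car1*, *Hba-a1*, *Slc4a1*, *Plvap*, *Robo4*, *Kdr*, *Cldn5*, *Cd5l* and *Ly6g* ended without control 1 (adjusted p 0.0537 to 0.108). They also ended without control 2 (adjusted p 0.0646 to 0.131). *Robo4* (0.0902), *Plvap* (0.0668) and *Col1a1* (0.119) were lost without control 3, and *Cldn5* (0.0512) without Atg5f/f;Vav 2. The 10 genes themselves summed to 9.85, 8.77 and 8.57 against 8.02, 7.85 and 7.78. *Gp9* made up 55.5 to 60.8% of that sum in controls, and without it the genes gave 3.86, 3.73 and 3.82 against 3.98, 4.26 and 5.09.

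**Figure D5:**
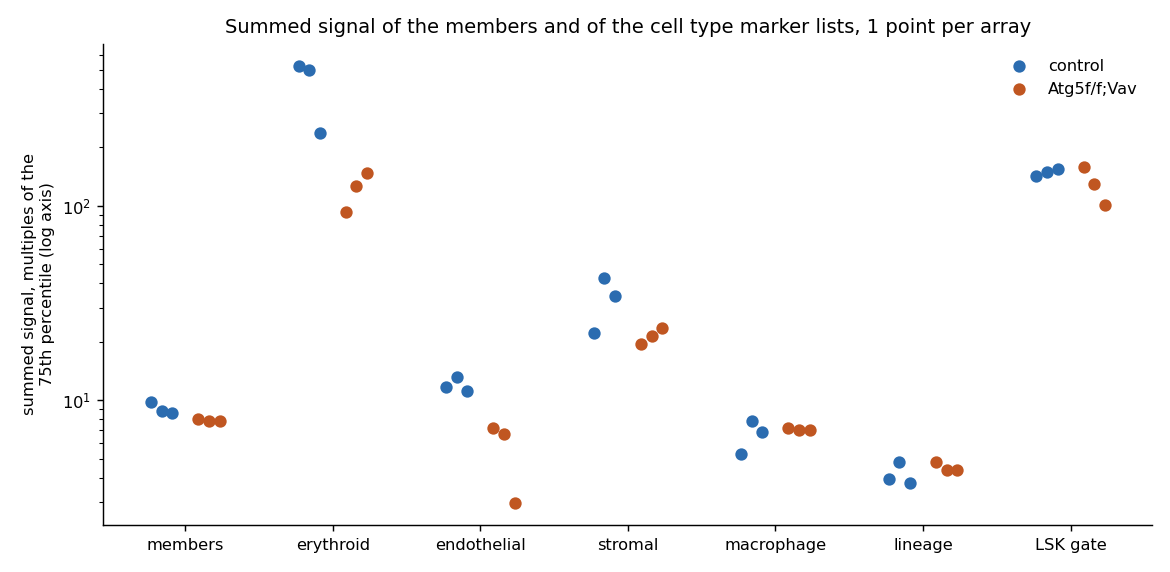
Summed signal of the 10 genes (members) and of 6 marker lists, in multiples of the array's 75th percentile on a log axis, 1 point per array, with controls in blue and arrays labelled Atg5f/f;Vav in orange. The erythroid sum lies at 237 to 525 in controls and at 93.3 to 147 in the others, and the endothelial sum at 11.2 to 13.1 and at 2.96 to 7.18, sums made up mostly of *Hba-a1* and *Robo4*.

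Scaling set where 0 lies. With the 75th percentile taken over probes well above background on all arrays, the median difference of all tested probes moved to -0.27, and 3371 probes were called higher and 10088 lower, in place of 5540 and 5484. *Itga2b* (0.96), *Gp5* (1.88), *Ppbp*, *Thbs1*, *Vwf* (-0.91) and *Gp9* (-0.83) kept their direction and passed, whereas *Selp* turned to -0.03. With normexp, whose offset of 50 shortens differences of dim probes by construction, the fitted differences were -0.56 for *Ppbp*, -0.69 for *Thbs1*, 0.69 for *Itga2b* and 1.22 for *Gp5*, all past the threshold.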

How the data were processed

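The authors sorted LSK cells, labelled RNA for 1-colour Agilent arrays designed on mm9 and deposited 1 intensity per spot, corrected for background by Agilent Feature Extraction 12.0.3.1 and not scaled between arrays. They also deposited a table of normalised signal, in which an array's intensity is divided by that array's 75th percentile (over all spots, controls included).

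Intensities were put on the log2 scale, and the 75th percentile of the array's 59305 non-control spots was subtracted. Between 64 and 81 spots per array that the software marked as outliers were dropped (none of the 10 genes). No spot was saturated, and repeat spots were averaged. A probe was tested where 3 or more arrays showed it well above background, which left 32074 of 56605. Tests were 2-sided and run in limma 3.58.1 (R 4.3.3) by lmFit followed by eBayes. P-values were adjusted by the Benjamini-Hochberg method across those probes, with a threshold of 0.05. With 3 arrays against 3, an exact permutation test cannot go below p = 0.1. Where a probe was not well above background on any array of a group, a bound was computed from the lowest signal well above background on each array of that group. The bound compares group means, and no p-value belongs to it. The number of arrays limits the precision. Promoters were read from RefSeq on GRCm38.p6. No mm9 gene models were used, so exons and UTRs were not assigned to probes.

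The 10 genes and all lists were chosen with earlier results of these data known. Genes named from each further list were up to 3 with the largest rise and 3 with the largest fall past the threshold, plus *Gata1*, *Fli1*, *Nfe2*, *Runx1*, *Gp1ba*, *Gp6* and *Tubb1*; 1 further gene under this rule is not reported here and was left out of its list. For the marker lists, the rule took up to 2 genes highest in signal and up to 2 with the largest change each way. Not all of these are named. The genes *Kit*, *Cdh5*, *Sele*, *Cxcl12*, *Postn*, *Dcn* and *Pdgfrb* lie outside that rule and were named after their values were seen. The alternatives were other background correction, scaling, filters, source of values, tests, a replicate block, probe averages and each array left out.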

Additional observations from a re-analysis of the deposited data

How the results depend on the processing

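*Itga2b*, *Gp5*, *Ppbp*, *Thbs1*, *Vwf*, *Gp9*, *Pf4*, *Itgb3* and *Gp1bb* kept their direction under every alternative run, 18 for each, or 17 for *Ppbp* and *Thbs1*, which a filter on all 6 arrays leaves untested. *Selp* turned to -0.03 with the percentile over probes well above background on all arrays, *Nfe2* ran from -0.15 to 0.03 when each array was left out, turning without Atg5f/f;Vav replicate 3, and *Runx1* turned to 0.15 with the mean of its probes. With no filter on dim probes, 2 of the 10 genes were called lower in place of 4, and 7 higher and 2 lower in the 6 other lists in place of 12 and 11; more probes enter the adjustment there. The filter on all 6 arrays also left 2 of the 10 genes called lower and gave a median of 0.37, since *Ppbp* and *Thbs1* were not tested. The median over the 10 genes was 0.46 with quantile normalisation and 0.01 with the percentile over probes well above background on all arrays, which called 21 genes of the other lists lower. The methods' t-test on the same values gave 13541 probes at an unadjusted p under 0.05, with 2 of the 10 genes higher and 4 lower and 21 genes of the other lists higher and 9 lower. After Benjamini-Hochberg adjustment it called 0 probes, against 11024 by limma, and so 0 genes of any list either way. Leaving out each array in turn gave 0 to 3 of the 10 genes higher and 0 to 3 lower, a median of 0.15 to 0.26, and 0 to 14 genes higher and 0 to 21 lower in the other lists. The counts were 0 without control 1 or control 2; for the lower genes of the other lists they were 3 without control 3, 21 without Atg5f/f;Vav 1 and 6 without Atg5f/f;Vav 2. Other causes of these changes were not tested.

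The labels of same-numbered arrays share only a number. Their deviations from the group means correlated at -0.065, 0.189 and 0.111. Control 1 correlated best with Atg5f/f;Vav 2 (0.132), while controls 2 and 3 correlated best with the array of their own number. With 3 arrays per group, these correlations cannot decide whether such arrays shared a litter or a preparation. With the replicate number as a block, limma called 10173 probes and still 2 of the 10 genes higher and 4 lower. Among the other lists, the block ended the calls of *Meis1*, *Actn1*, *Rab27b* and *Cbl* (adjusted p 0.0559 to 0.0714). All arrays shared 1 slide and 1 scan, so neither was fitted as a block.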
